A study of Mus musculus with 12 samples.

Results

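Expression of 4 genes of the prohormone processing machinery of secretory granules was followed in the antrum of CEA424-SV40 TAg transgenic mice. The genes were taken by symbol: Pcsk2, which encodes the prohormone convertase PC2, Pcsk1n, which encodes proSAAS, Scg5, which encodes the chaperone 7B2, and Resp18, which encodes regulated endocrine-specific protein 18. They are 4 of the 8869 genes that could be named on the array and were read by 6 of its 46116 probes. Pcsk2 had 3 named probes and each other gene had 1. As 35076 probes had no gene name, other probes of these genes may have been missed. The probes of Scg5 and Resp18 and 1 of Pcsk2 were named only through the study's lists of raised genes.

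Peptide hormones are made as long precursors that are cut in secretory granules after pairs of basic residues, mainly by the convertases PC1/3 and PC2, and are then trimmed by carboxypeptidase E and in part amidated. PC2 is made as an inactive zymogen whose maturation needs the chaperone 7B2, and a peptide from the tail of 7B2 inhibits the enzyme. ProSAAS is a granin-like precursor with a peptide that inhibits PC1/3. RESP18 is a luminal protein of endocrine and neuroendocrine cells with a region related to the granule membrane proteins of the IA-2 family. All 4 are known from neurons and endocrine cells, which in the antrum include the gastrin, somatostatin and enterochromaffin cells of the glands.

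RNA from antral tissue of single mice was hybridised to Illumina Sentrix Mouse-6 bead arrays, on which a probe's brightness stands for the amount of its transcript. The 4 groups of 3 mice were non-transgenic controls and transgenic mice of 30, 60 and 90 days, all on the C57Bl/6 background. The transgenic mice, kept hemizygous, carry the SV40 early region, which encodes the large and small T antigens, under a short promoter of the human CEA gene, and their samples held tumour mixed with normal antrum. The labels put the wild type controls at 2 to 6 months, whereas the study describes littermates and, in a caption, non-transgenic mice of 90 days. By either age no control was 30 days old, so transgene and age cannot be told apart in day 30 against control. Whether the other groups were matched to the controls in age is not settled. Array medians of non-normalized intensity lay between 92.1 and 127, and control mouse 3 stood apart from the other arrays on the second principal component (52.4, against -21.1 to 9.55). Nothing ties a mouse of one group to a mouse of another.

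The promoters of the 4 genes are shown here, 5′ to 3′ on the gene's strand, from RefSeq on the build GRCm38.p6. Each window runs from 250 bases before to 50 bases after the start of the gene. Capitals mark matches, on either strand, to any of 7 short motifs.
Pcsk2, chr2:143545883-143546182, plus strand: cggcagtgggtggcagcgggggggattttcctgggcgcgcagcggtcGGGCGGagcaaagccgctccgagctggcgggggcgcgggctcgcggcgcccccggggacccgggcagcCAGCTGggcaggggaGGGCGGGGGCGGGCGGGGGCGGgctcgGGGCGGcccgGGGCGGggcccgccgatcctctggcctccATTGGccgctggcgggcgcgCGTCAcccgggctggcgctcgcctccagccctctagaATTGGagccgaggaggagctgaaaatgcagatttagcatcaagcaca
Pcsk1n, chrX:7919572-7919871, plus strand: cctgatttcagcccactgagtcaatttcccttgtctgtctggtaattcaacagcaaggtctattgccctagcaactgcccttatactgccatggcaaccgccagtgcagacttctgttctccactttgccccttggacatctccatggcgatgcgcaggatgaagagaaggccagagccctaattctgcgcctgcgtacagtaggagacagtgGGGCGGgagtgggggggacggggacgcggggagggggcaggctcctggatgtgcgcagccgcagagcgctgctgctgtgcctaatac
Scg5, chr2:113829042-113829341, minus strand: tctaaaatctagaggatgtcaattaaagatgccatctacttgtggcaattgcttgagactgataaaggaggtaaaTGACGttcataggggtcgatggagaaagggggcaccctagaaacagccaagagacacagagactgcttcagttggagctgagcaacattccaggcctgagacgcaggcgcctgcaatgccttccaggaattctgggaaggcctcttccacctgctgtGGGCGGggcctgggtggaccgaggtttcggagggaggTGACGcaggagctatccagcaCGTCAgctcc
Resp18, chr1:75278366-75278665, minus strand: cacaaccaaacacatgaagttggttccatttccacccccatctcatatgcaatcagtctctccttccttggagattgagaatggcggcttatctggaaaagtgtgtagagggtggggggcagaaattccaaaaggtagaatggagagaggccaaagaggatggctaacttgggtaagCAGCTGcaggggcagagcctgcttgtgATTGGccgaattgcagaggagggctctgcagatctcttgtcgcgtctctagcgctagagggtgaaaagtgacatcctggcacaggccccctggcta
The base composition differed widely. G and C made up 76.3% of the Pcsk2 window, 58.7% of the Pcsk1n window, 54% of the Scg5 window and 52.3% of the Resp18 window, against a median of 52.7% over all 32851 promoters of the table. The GC box (GGGCGG) occurred 7 times in Pcsk2, with some matches sharing bases with the next, once in Pcsk1n and once in Scg5, and 35.7% of all promoters held it. The core of the CRE (TGACG) occurred 3 times in Scg5 and 1 time in Pcsk2, and 20.8% of all promoters held it. The E-box CAGCTG occurred 1 time each in Pcsk2 and Resp18, against 16.3% of all promoters. The CCAAT box (CCAAT) occurred 2 times in Pcsk2 and 1 time in Resp18, against 37.4% of all promoters. Neither the TATA box (TATAAA, in 13.6% of all promoters) nor the left arm of the RE1 element (TTCAGCACC, in 0.371%) had a match in any of the 4 windows. The same held for the E2F forms TTTCCCGC, TTTCGCGC, TTTGCCGC and TTTGGCGC, of which 2.27% of all promoters held at least 1. No single motif was shared by all 4 genes, and a match in a window of letters is not a measured binding site.

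At day 90 all 4 genes were far above control. The rises, on the log2 scale with limma's standard error, ran from 2.40 ± 0.15 for the least changed Pcsk2 probe to 4.87 ± 0.30 for Resp18. At day 60 Scg5 and Resp18 were raised, and at day 30 no member probe passed the test. The values below are normalized signals in arbitrary units after background correction and quantile normalization, and a probe was taken as above background at a signal over 100. Folds are ratios of geometric means. In these bulk samples a change in the number of cells of a type and a change in RNA per cell cannot be told apart.

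**Figure D1:**
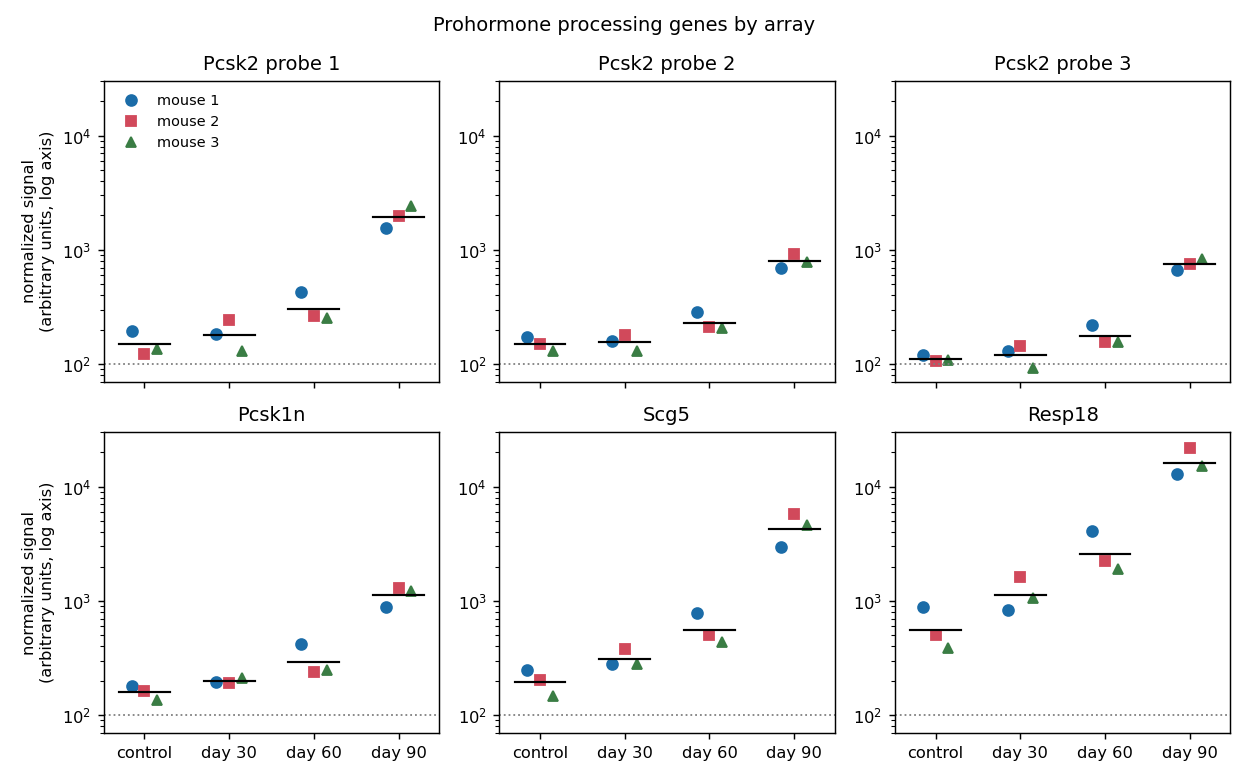
Normalized signal (arbitrary units, log axis) of the 6 member probes on each of the 12 arrays, by group (3 mice each). Points are mice, the bar is the geometric mean and the dotted line is the signal of 100 taken as background. The 3 day 90 arrays lay above all other arrays on every probe shown. The share of all probes with that order is not given here.

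Pcsk2 encodes the convertase itself. Its brightest probe, scl018549.12_191-S, read 195.7, 123.6 and 136.9 in control mice 1 to 3, 182.8, 244.8 and 130.8 at day 30, 430.2, 261.4 and 253.9 at day 60, and 1539, 1977 and 2401 at day 90. Day 30 overlapped with control, day 60 lay just above both, and the lowest day 90 array stood well above the highest day 60 array. The mean was 1972 ± 431 (SD, n = 3) at day 90 and 152 ± 38.4 in control (SD, n = 3), a 13.0-fold difference (log2 fold change 3.70 ± 0.21, limma adjusted p = 1.28e-05).

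The other probes of Pcsk2 ran in the same order of groups with a smaller span. Probe scl0018549.1_176-S read 172.6, 150.1 and 130.5 in control, 159.6, 181.4 and 129.0 at day 30, 283.4, 210.2 and 206.4 at day 60, and 696.4, 913.4 and 786.3 at day 90. Probe scl20208.12.1_29-S read 121.0, 106.0 and 107.7 in control, 130.5, 144.4 and 93.2 at day 30, 221.8, 154.7 and 155.2 at day 60, and 661.9, 752.0 and 836.9 at day 90. Control and day 30 lay close to the background signal of 100 on both probes, and on the second of them day 30 mouse 3 lay below it. At day 90 against control they were raised 5.29-fold (log2 2.40 ± 0.15, limma adjusted p = 1.95e-05) and 6.70-fold (log2 2.75 ± 0.13, limma adjusted p = 5.82e-06). The 3 probes of this 1 gene thus gave log2 changes between 2.40 and 3.70 on the same arrays, a span that covers the change of Pcsk1n. On the deposited normalized values the changes of the 2 dimmer probes came to 3.04 and 3.51, over 1.5 times larger as folds.

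Scg5 encodes 7B2, the chaperone that PC2 needs. Its probe, scl18858.8.1_25-S, read 246.9, 203.1 and 146.7 in control, 281.0, 381.7 and 282.2 at day 30, 786.3, 505.7 and 433.1 at day 60, and 2969, 5734 and 4573 at day 90. The 4 groups did not overlap, and each lay above the one before it. The share of all probes with this order of 4 groups is not given here. Day 90 mice averaged 4425 ± 1388 and controls 199 ± 50.2 (SD, n = 3 each), which was 21.95-fold higher (log2 4.46 ± 0.26, limma adjusted p = 1.34e-05).

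Pcsk1n encodes proSAAS. Its probe, scl0030052.2_159-S, read 181.8, 163.5 and 135.2 in control, 195.6, 193.2 and 212.6 at day 30, 416.6, 236.5 and 247.9 at day 60, and 892.4, 1294 and 1224 at day 90. These groups did not overlap either, although the lowest day 30 array, at 193.2, was close to the highest control array, at 181.8. For this order too the share of all probes is not given. The day 90 mean was 1137 ± 214 against 160 ± 23.5 in control (SD, n = 3 each), a 7.06-fold difference (log2 2.82 ± 0.18, limma adjusted p = 1.8e-05).

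Resp18 encodes the endocrine-specific luminal protein. Its probe, scl16596.6.1_82-S, read 876.0, 504.5 and 384.9 in control, 830.7, 1613 and 1067 at day 30, 4062, 2236 and 1887 at day 60, and 12814, 21943 and 15164 at day 90. Day 30 mouse 1 fell inside the control range, whereas all day 60 arrays lay above all day 30 arrays. Day 90 mice averaged 16640.3 ± 4740 and controls 588 ± 256 (SD, n = 3 each), which was 29.3-fold higher (log2 4.87 ± 0.30, limma adjusted p = 1.65e-05).

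All 6 member probes were called higher at day 90 against control, where 10.4% of the 22067 probes tested were called higher. Their median log2 change was 3.26, against -0.04 over all probes tested. The study itself lists all 4 genes among those it picked for their rise in these same day 90 samples, so their direction at day 90 is not independent evidence. The count stayed at 6 under each alternative run, among them each single array left out and the 4 arrays with pancreatic acinar signal described below left out together (limma adjusted p between 0.0135 and 0.026 in that last fit, in which a lone day 90 array is taken to vary as the controls do).

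**Figure D2:**
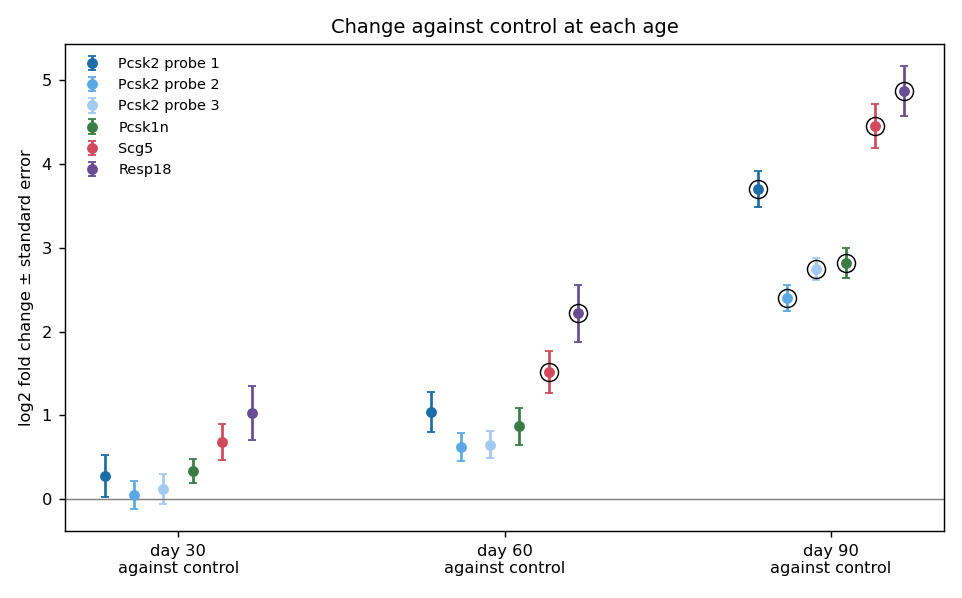
Log2 fold change against control (vertical axis) at day 30, day 60 and day 90 for the 6 member probes, with limma's standard errors (3 against 3 arrays). Ringed points passed an adjusted p of 0.05. None is ringed at day 30, Scg5 and Resp18 are ringed at day 60, and all 6 are ringed at day 90, between 2.40 and 4.87.

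The comparison of day 60 with control asked how early the genes changed. Scg5 and Resp18 were called higher, 2 of 6 probes, where 0.847% of all probes were called higher. Both probes carry names only through the study's list of genes raised at day 90 over these same controls. Their 2 calls are therefore not independent evidence. Resp18 averaged 2729 ± 1168 at day 60 and 588 ± 256 in control (SD, n = 3 each), a 4.65-fold rise (log2 2.22 ± 0.34, limma adjusted p = 0.0314). Scg5 averaged 575 ± 187 at day 60 and 199 ± 50.2 in control (SD, n = 3 each), a 2.86-fold rise (log2 1.52 ± 0.25, limma adjusted p = 0.0362). The log2 change was 0.87 ± 0.22 for Pcsk1n (limma adjusted p = 0.122) and 1.04 ± 0.24, 0.62 ± 0.16 and 0.65 ± 0.16 for the Pcsk2 probes (limma adjusted p = 0.0962, 0.131 and 0.112), none of which passed. With the replicate block the first of them, Pcsk2 probe scl018549.12_191-S, did pass (limma adjusted p = 0.0454). On all 6 probes every day 60 array nevertheless lay above every control array, an order that 11.8% of all probes tested also had. Neither of the calls was held without control mouse 1, without control mouse 2 or without any 1 of the day 60 mice (0 of 6 probes in each of these fits), and both were held without control mouse 3. The log2 change of Resp18 stayed between 1.89 and 2.77 over all alternatives, and that of Scg5 between 1.27 and 1.89.

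Day 30 against control gave no call among the members or among all probes (0 of 22067, or 0% called higher). At an unadjusted p under 0.05 limma counted 3 of the 6 member probes and 887 of all probes, and the methods' t-test, once adjusted by Benjamini-Hochberg, also gave 0 calls. The log2 change was 1.02 ± 0.32 for Resp18 (limma adjusted p = 0.942), 0.68 ± 0.21 for Scg5 (0.919) and 0.33 ± 0.15 for Pcsk1n (0.999). For the Pcsk2 probes it was 0.27 ± 0.25, 0.05 ± 0.17 and 0.12 ± 0.18 (limma adjusted p = 0.999 for each). Pcsk1n and Scg5 were the 2 probes whose day 30 arrays all lay above all control arrays, which 5.04% of all probes did.

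Between consecutive ages the larger part of the log2 rise fell after day 60, a difference between steps that was not tested. Day 60 against day 30 gave log2 changes between 0.53 ± 0.20 (Pcsk2 probe scl20208.12.1_29-S and, alike, Pcsk1n) and 1.19 ± 0.30 (Resp18), and none of the 6 probes passed (limma adjusted p between 0.132 and 0.296), where 0.353% of all probes were called higher. All 6 had an unadjusted p under 0.05 in limma, as did 2895 of the 22067 probes tested, and the methods' t-test, once adjusted, gave 0 calls. The 3 day 60 arrays lay above the 3 day 30 arrays on all 6 probes, as on 10.2% of all probes. Without day 30 mouse 2, Resp18 alone passed (log2 1.45, limma adjusted p = 0.0429).

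Day 90 against day 60 raised all 6 member probes, where 9.94% of all probes were called higher. The log2 change was 2.94 ± 0.25 for Scg5 (4425 ± 1388 at day 90 and 575 ± 187 at day 60, SD, n = 3 each, limma adjusted p = 3.65e-05), 2.65 ± 0.27 for Resp18 (limma adjusted p = 9e-05) and 1.95 ± 0.21 for Pcsk1n (limma adjusted p = 0.00015). It was 2.67 ± 0.21, 1.78 ± 0.15 and 2.10 ± 0.16 for the Pcsk2 probes (limma adjusted p between 1.6e-05 and 3.37e-05). The count of 6 was held under every alternative run. This comparison shares the day 90 arrays with the one against control, and the comparisons against control share the 3 control arrays.

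With all 9 transgenic arrays set against the 3 controls, each of 6 member probes was tested once by an exact two-sided permutation test over 220 splits, whose smallest p is 0.00909. Pcsk1n and Scg5 reached that value, since all 9 transgenic arrays lay above the highest control. For Resp18 8 of 9 transgenic arrays did so (exact p = 0.0182). The Pcsk2 probes had 7, 7 and 8 such arrays (exact p = 0.0545, 0.0727 and 0.0545), and their lowest transgenic array was day 30 mouse 3 each time. These exact p-values are not adjusted for the 6 tests. The members were chosen with results of these data known, so the values only describe how far the groups lay apart. The share of all probes with all 9 transgenic arrays above the controls is not given here.

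Within a group the members tended to rank the mice alike. Day 60 mouse 1 was the highest of its group on 6 of 6 member probes, day 90 mouse 1 was the lowest of its group on 6 of 6, and day 30 mouse 2 was the highest on 5 of 6, Pcsk1n being the exception. Control mouse 1 was the highest control on 6 of 6. The probe named for the SV40 large T antigen, the transforming protein of the transgene, read 69.1, 72.3 and 67.5 in control, 80.1, 126 and 93.4 at day 30, 159, 112 and 106 at day 60, and 175, 175 and 143 at day 90. It too was highest in mouse 2 at day 30 and in mouse 1 at day 60, while at day 90 it was lowest in mouse 3. Controls were not above background on it, and it rose by at least 1.64-fold at day 90 (limma adjusted p = 0.000281). This probe passed the signal filter only through transgenic arrays, so its direction is not independent evidence. The methods' t-test under its fold and difference limits did not make the day 90 call.

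**Figure D3:**
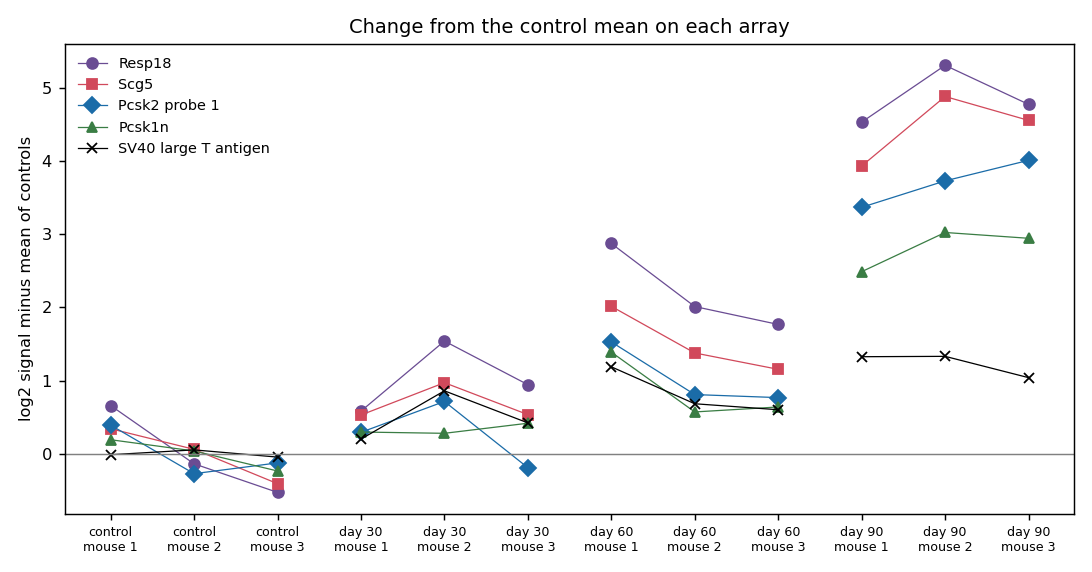
Log2 normalized signal minus the mean of the 3 controls (vertical axis) on each array, for 1 probe of each member gene and the SV40 large T antigen probe. Lines join the mice of a group only to guide the eye. Day 30 mouse 2 and day 60 mouse 1 stand out upwards for Resp18, Scg5, Pcsk2 and large T antigen, and the spread between the genes is widest at day 90.

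Markers of other cells moved with the groups. The summed signal of 6 measured enteroendocrine markers of 8 listed lay between 1010 and 1110 in control, 1680 and 6000 at day 30, 4410 and 9660 at day 60, and 46300 and 59900 at day 90. At day 90 against control 6 of 6 were called higher, where 10.4% of all probes were. For 5 of these 6 the name comes only from the study's lists of genes raised in these samples, so their direction is not independent evidence, and the granin gene Chgb made up most of the sum (31368 to 41563 at day 90). Fev, a transcription factor gene named by its gene number, was between 230 and 255 at day 90 against 72.2 to 79.3 in control. Its controls were not above background. Fev passed the signal filter only through transgenic arrays, so its direction is not independent evidence either. The sum of 3 measured parietal cell markers of 6 listed, led by the proton pump gene Atp4a, was between 1630 and 2300 at day 90 against 8430 to 28900 in control, and 3 of 3 were called lower, where 9.17% of all probes were. All 4 measured smooth muscle markers of 7 listed were called lower as well (sums of 1870 to 2610 at day 90 against 6140 to 7430 in control), and so were all 5 measured squamous markers of 11 listed (481 to 7640 against 13800 to 20900). The squamous sums already lay below every control at day 30 (666 to 7610) and day 60 (1800 to 13500), with 0 of 5 markers called at either age. Parietal sums (6050 to 28600 at day 30, 16800 to 20800 at day 60) and smooth muscle sums (4670 to 8320, 3610 to 6890) overlapped with control. Both measured enteric neuron and glia markers of 10 listed, Gap43 and Elavl4, were called higher (1000 to 1370 at day 90 against 185 to 241 in control), where 10.4% of all probes were. Elavl4 passed the signal filter only through day 60 and day 90 arrays, so its direction is not independent evidence. Gastrin and somatostatin and the 7 listed mucous markers had no named probe, so these defining genes of the antrum were not checked here. The part of these shifts in the rise of the 4 genes was not tested.

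Single arrays also stood apart. Day 30 mouse 2, highest of its group for Resp18 and Scg5, had Atp4a at 3527 against 16709 and 17334 in the other two, and Chgb at 3686 against 308 and 381. The pancreatic acinar gene Cel read 15164 in control mouse 1, 7584 in day 60 mouse 3, and 642 and 3869 in day 90 mice 2 and 3, and no more than 328 on the other arrays. PC2 and its partners are also known from pancreatic islets, and control mouse 1 had the highest control signal on each member probe. The islet hormone gene Iapp, the only 1 measured of 7 listed islet markers, read 116, 106 and 114 in the controls. It read 162 in day 60 mouse 3, the lowest of its group, but 788 in day 90 mouse 3, the highest. Iapp carries its name only through the study's lists of genes raised in these samples, so its direction is not independent evidence. Without these 4 arrays the log2 change of Resp18 was 4.86 at day 90, 2.77 at day 60 and 1.35 at day 30 (limma adjusted p = 0.0135, 0.153 and 0.59).

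Other genes of prohormone processing did not all move with the members. Of 21 further processing genes listed, 9 were measured. At day 90 against control 4 of the 9 were called higher and 2 lower, where 10.4% of all probes were higher and 9.17% lower, and their median log2 change was -0.01. At day 60 and at day 30 none of the 9 was called.

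**Figure D4:**
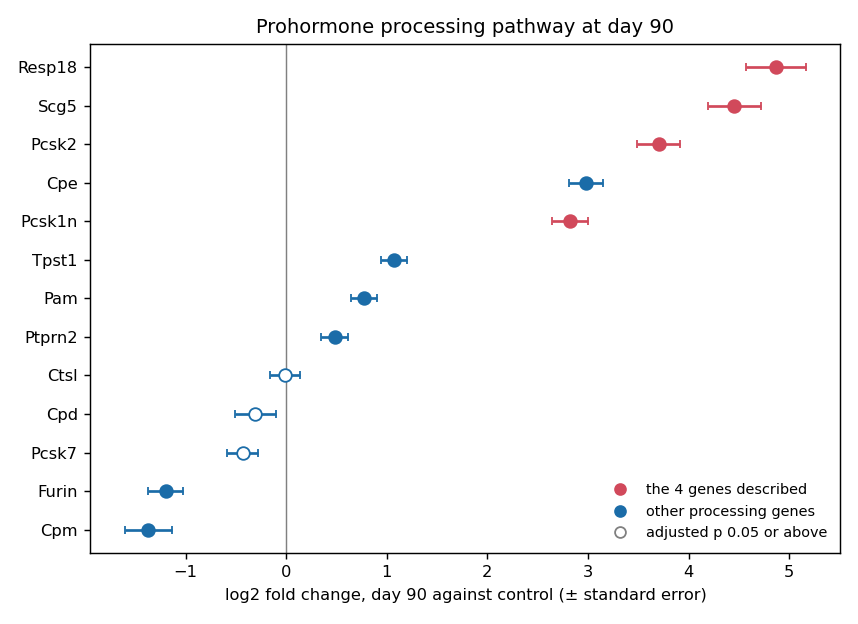
Log2 fold change at day 90 against control (horizontal axis) with limma's standard error for the 13 measured processing genes, 1 probe each. Red marks Pcsk2, Pcsk1n, Scg5 and Resp18, blue the other processing genes, and open symbols an adjusted p of 0.05 or above. Cpe at 2.98 lies among the 4 genes, and Furin and Cpm lie below 0.

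Among the convertases Pcsk2 was the only 1 of 3 measured genes that was called higher. Furin, the convertase of the constitutive pathway that most cells use, read 140, 122 and 155 at day 90, against 315, 396 and 259 in control, with no overlap. Its level was 2.30-fold lower at day 90 (log2 -1.20 ± 0.17, limma adjusted p = 0.00181). The methods' t-test, once adjusted, did not make this call. At day 60 Furin read 407, 352 and 358 and was not called (log2 0.22 ± 0.16, limma adjusted p = 0.578), and at day 30 mouse 2 it read 114 against 400 and 467 in the other two. Pcsk7, another widely expressed convertase, averaged 570 ± 36.6 at day 90 and 777 ± 152 in control (SD, n = 3 each) and did not pass (log2 -0.43 ± 0.16, limma adjusted p = 0.0863). Mbtps1 was too dim to be tested. Pcsk1, the convertase that proSAAS inhibits, was among the genes not analysed here, together with Pcsk4, Pcsk5 and Pcsk6.

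The carboxypeptidases, which remove the basic residues that the convertases leave at a peptide's end, split as well. Cpe, the granule enzyme of this step, read 9843, 12943 and 10219 at day 90, against 1587, 1472 and 1129 in control, and was 7.90-fold higher (log2 2.98 ± 0.17, limma adjusted p = 1.15e-05). It was named from the study's own list of raised genes, so its direction is not independent evidence. Cpm, a membrane carboxypeptidase, was 2.59-fold lower (185 ± 27.5 at day 90 and 492 ± 151 in control, SD, n = 3 each, log2 -1.37 ± 0.24, limma adjusted p = 0.00431). That call too was missing from the methods' t-test once adjusted. Cpd, which acts in the trans-Golgi network, did not pass against control (log2 -0.31 ± 0.20, limma adjusted p = 0.345) and was lower at day 90 than at day 60 (178 ± 1.82 at day 90 and 273 ± 14.7 at day 60, SD, n = 3 each, log2 -0.61 ± 0.10, limma adjusted p = 0.00184).

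Of the enzymes that modify peptides, both measured genes rose. Pam, which amidates peptide ends, read 128, 151 and 144 at day 90, against 92.1, 74.6 and 81.2 in control. The controls were not above background, so the signal rose by at least 1.41-fold (limma adjusted p = 0.00415). Pam passed the signal filter only through day 60 and day 90 arrays, so its direction is not independent evidence. Tpst1, a tyrosine sulphotransferase, was 2.11-fold higher (757 ± 36.4 at day 90 and 361 ± 41.4 in control, SD, n = 3 each, limma adjusted p = 0.000646). Ctsl, a cathepsin that can also cut prohormones, averaged 101.2 ± 12.4 at day 90 and 102 ± 15.1 in control (SD, n = 3 each) and did not pass (log2 -0.01 ± 0.15, limma adjusted p = 0.967). Its signal lay near background in both groups, where small changes could not be seen. Ptprn2, the IA-2 family member measured here, has a luminal part related to RESP18 and was 1.39-fold higher (137 ± 6.78 at day 90 and 98.5 ± 12.2 in control, SD, n = 3 each, log2 0.48 ± 0.13, limma adjusted p = 0.0331). In 9 of the alternatives Ptprn2 missed the threshold, with 75th percentile scaling for 1 (limma adjusted p = 0.0567).

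The precursors on which this machinery acts were examined in the same way. Of 29 listed prohormones and granins 11 were measured, and 10 were called higher and 0 lower at day 90 against control, where 10.4% of all probes were called higher, with a median log2 change of 4.77 against -0.04 over all probes tested. Of the 11, 8 carry names only through the study's lists of genes raised in these samples, so their direction and that median are not independent evidence. Of the 3 others, Scg2, Calca and Adcyap1, 2 were called higher. The granin gene Scg2, named by its gene number, averaged 11606 ± 2027 at day 90 and 147 ± 6.32 in control (SD, n = 3 each, log2 6.29 ± 0.15, limma adjusted p = 1.82e-07). Calca, which encodes calcitonin and its gene-related peptide, had 2 probes, whose controls were not above background. It rose by at least 24-fold on scl0012310.2_237-S (limma adjusted p = 1.8e-05) and by at least 14.4-fold on scl30784.6.1_78-S (limma adjusted p = 0.000267). Both probes passed the signal filter only through day 60 and day 90 arrays, so their direction is not independent evidence. Adcyap1, which encodes the neuropeptide PACAP, did not pass (95.6 ± 17.4 at day 90 and 117 ± 17.7 in control, SD, n = 3 each, limma adjusted p = 0.294). Its signal too lay near background in both groups, where small changes could not be seen.

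The genes whose course lay closest to each member were found by the root mean square difference of log2 signals, each taken from its own control mean, over the 9 transgenic arrays and 5714 named candidate genes. Among those closest to Pcsk2 were Gprasp2 (0.26), Kndc1 (0.29), Serpina3n (0.31) and Rufy3 (0.33). Closest to Pcsk1n were C1qtnf4 (0.13), Rgs9 (0.16), Fam155a (0.21), Peg3 (0.22) and Prss12 (0.22). Closest to Scg5 were Syt4, a synaptotagmin (0.23), Snap25, a vesicle fusion protein (0.30), Amigo2 (0.30), Pdyn, the prodynorphin precursor (0.31), and Miat (0.34). Closest to Resp18 were Sbp (0.26), Snap25 (0.34), Gad2 (0.34), Nt5dc2 (0.39) and Amigo2 (0.46). Among the members themselves Scg5 and Resp18 lay closest to each other (0.54) and Pcsk1n and Resp18 farthest apart (1.499). These distances are descriptions over arrays that share 1 set of controls, and 11 of the 20 closest entries, among them Snap25, Sbp, Gad2, Pdyn, C1qtnf4 and Rgs9, carry names only because the study had listed them as raised.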

How the data were processed

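Total RNA from the antrum of 12 mice was measured on 1-colour Illumina Sentrix Mouse-6 arrays, 1 per mouse. The authors deposited non-normalized probe intensity from BeadStudio and a table of normalized intensity, and their methods name vsn and quantile normalization without saying which made that table. Non-normalized intensities were background corrected (normexp, offset 50), quantile normalized, floored at 32 and taken to log2 with limma 3.58.1 in R 4.3.3. The offset shrinks folds of dim probes. Probes above 100 on at least 3 arrays were kept (22067). A probe not above 100 in control could pass only through the groups where it was brighter, which fixes part of its direction. Where no array of a group exceeded 100, the group was called not above background and a fold against it is a lower bound, computed against 100. Probes carry no gene names in the files, so a number inside a probe ID was read as an NCBI gene number (9832 probes) or a clone name was matched (983), and 225 probes were named from the study's supplementary lists alone, among them Scg5, Resp18 and 1 Pcsk2 probe. Of 87 probes named both ways, 87 had the same gene. This reading is an inference. Each comparison was fitted alone (3 arrays a group, lmFit and eBayes, no other term), and p-values were adjusted by Benjamini-Hochberg over all probes kept at a threshold of 0.05. A gene was represented by its kept probe with the highest mean. Permutation tests used scipy 1.17.1. The number of arrays limits the precision, and tests measure the spread between mice of a group. Named were every member probe, the pathway list genes that passed or whose role is described, and the 5 genes closest to each member, of which 1 is not reported here. The members, lists and rules were chosen with earlier results of these data known. No slide or detection p was given in the sources used here, so neither a slide block nor neqc was run. Alternatives were the background step, 75th percentile scaling, the deposited normalized intensity, other dim-probe filters, another spread model, the methods' t-test, 1 joint fit, the mouse number as a block, and single arrays left out.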

Additional observations from a re-analysis of the deposited data

Results flagged for a closer look

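The change against control differed between day 90 and day 60 on each of the 6 member probes, by limma's test of day 90 against day 60 itself. The difference of the log2 changes was 2.67, 1.78 and 2.10 for the Pcsk2 probes scl018549.12_191-S, scl0018549.1_176-S and scl20208.12.1_29-S, 1.95 for Pcsk1n, 2.94 for Scg5 and 2.65 for Resp18, and all 3 day 90 arrays lay above all 3 day 60 arrays on each. The share of all probes with that order is not given here. Groups of 3 were too small to examine single arrays for outlying values.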

How the results depend on the processing

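The counts of member probes called at day 90 against control (6 of 6), day 90 against day 60 (6 of 6) and day 30 against control (0) did not move under any alternative run. At day 60 against control the count of 2 became 1 with a trended and robust spread (Scg5) and 0 with the methods' t-test once adjusted, and 3 with that test unadjusted under its fold and difference limits. It was between 0 and 2 with 1 array left out. It was 0 without the 4 arrays with acinar signal, an alternative chosen after seeing the data. At day 60 against day 30 the count of 0 was between 0 and 1 with 1 array left out. The fits with an array left out rest on fewer samples, and other causes were not tested. With 1 array left out, the log2 change at day 30 against control ran from -0.065 to 0.18 for Pcsk2 probe scl0018549.1_176-S (negative without day 30 mouse 2 and without control mouse 3) and from -0.015 to 0.30 for probe scl20208.12.1_29-S (negative without day 30 mouse 2), and was called in neither direction. Of 510 values of single member probes under the alternatives, 488 kept their direction and side of the threshold. The mouse number pairs no samples across groups by the labels, and only 2 of 15 same-numbered pairs of arrays had deviations correlated above 0.1 (from -0.43 to 0.36). With it as a replicate block the count was 3 at day 60 against control, Pcsk2 probe scl018549.12_191-S being the added call there as under those limits, 6 at day 90 against control and day 90 against day 60, and 0 in the other comparisons. Signals of Pcsk2 in control and day 30 lay near background, where small changes could not be seen. For Ptprn2 the block gave an adjusted p of 0.0594 at day 90 against control.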
